A study of Zea mays with 12 samples.

Results

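The blue-light response of leaf RNA was compared between genotypes of maize: for each gene, the change from dark to blue light in the mutant stock zmcryq minus the same change in B73, an inbred line that the labels call wild-type. The comparison drew on all 12 libraries of the series, 12 of 12, in 4 groups of 3: zmcryq given 1 h of blue light, zmcryq left in the dark, B73 given 1 h of blue light and B73 left in the dark. Per the labels, all were leaves of seedlings 7 days old that had grown under white long days and then spent 48 h in darkness. The name zmcryq refers to cryptochromes, but no source used here names its alleles or background line, so it may differ from B73 outside the cryptochrome genes as well. Whether the 3 libraries of a group stem from different plants is not stated either, and the p-values cover only the spread between libraries, which may be technical.

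Cryptochromes are flavin-binding photoreceptors that absorb blue light, and in Arabidopsis their lit form holds back the COP1/SPA complexes that degrade light-promoting transcription factors. Phototropins and phytochromes also absorb blue light, so leaves without cryptochromes can still sense it. A blue response can differ between genotypes because the level reached in the light differs or because the starting level in the dark differs. The 4 group means of a gene can show which group, if any, is the odd one.

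The deposited table lists 44303 gene IDs, of which 21472 reached 1 FPKM in 3 libraries or more and were tested. FPKM express fragments relative to transcript length and to the sequencing total of the library, a unit inferred here from the values. The reference table matched 0 of the IDs, so genes are given by ID without function, and neither the cryptochrome genes nor leaf cell type markers were looked up. Library totals ran from 588717 to 814802 FPKM, and the median-ratio factors by which the values were divided ran from 0.507 in zmcryq dark replicate 1 and 0.567 in B73 blue replicate 2 to 1.64. After scaling, B73 dark replicate 3 lay farthest from its group mean, with a root mean square deviation of 0.377 on the log2 scale over the tested genes, against 0.194 to 0.297 in the other 11 libraries. The values hold no fragment counts, so the depth behind each value is unknown. Responses and differences are on the log2(scaled FPKM + 1) scale, which understates changes of low genes, and a gene was called at a limma adjusted p under 0.05.

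Genotype and light each moved leaf RNA more than their combination did. Of the total variation over the tested genes, 44.2% lay between genotypes, 34.7% between light conditions, 7.41% in the genotype by light term and 13.6% within groups. The difference of blue responses, zmcryq minus B73, was called for 5543 genes, 25.8% of those tested. It was higher in zmcryq for 2322 (10.8%) and lower for 3221 (15.0%). Most of these differences were modest: the median size was 0.903 on the log2 scale over called genes, against 0.355 over all tested genes, and 2352 (11.0%) reached 2-fold, 771 of them higher (3.59%) and 1581 lower (7.36%). Without B73 dark replicate 3 the calls numbered 3229 higher and 4079 lower, and without both libraries of lowest factor 1412 higher and 2245 lower.

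The balance between higher and lower depended on how the libraries were scaled. Of the called genes 41.9% were higher in zmcryq after median-ratio scaling, 52.9% after quantile normalization (3207 higher, 2856 lower) and 59.5% with no scaling (605 higher, 412 lower), where the median of all genes was itself shifted to 0.56, against -0.01 after median-ratio scaling. Median-ratio scaling removes any shift shared by most genes. Of the 5543 calls, 5028 were also made in the same direction after quantile normalization and 914 with no scaling. The rest were not called there, and 0 were called in the opposite direction in either.

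The blue responses of zmcryq and B73 resembled each other across the 21472 genes, with Pearson's r of 0.653 and Spearman's rho of 0.661, given as a description because genes are not independent replicates and all libraries were scaled together. The extremes were not symmetrical. Of the 159 called genes whose responses differed by 3 or more on the log2 scale, 23 were higher in zmcryq and 136 lower. In 103 of the 159 the B73 blue libraries stood apart from the other groups. Of these 103, 23 had no expression listed in a whole group, so their size depends on the 1 added before the log. The counts at this size were not repeated with other scalings or another added value.

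**Figure D1:**
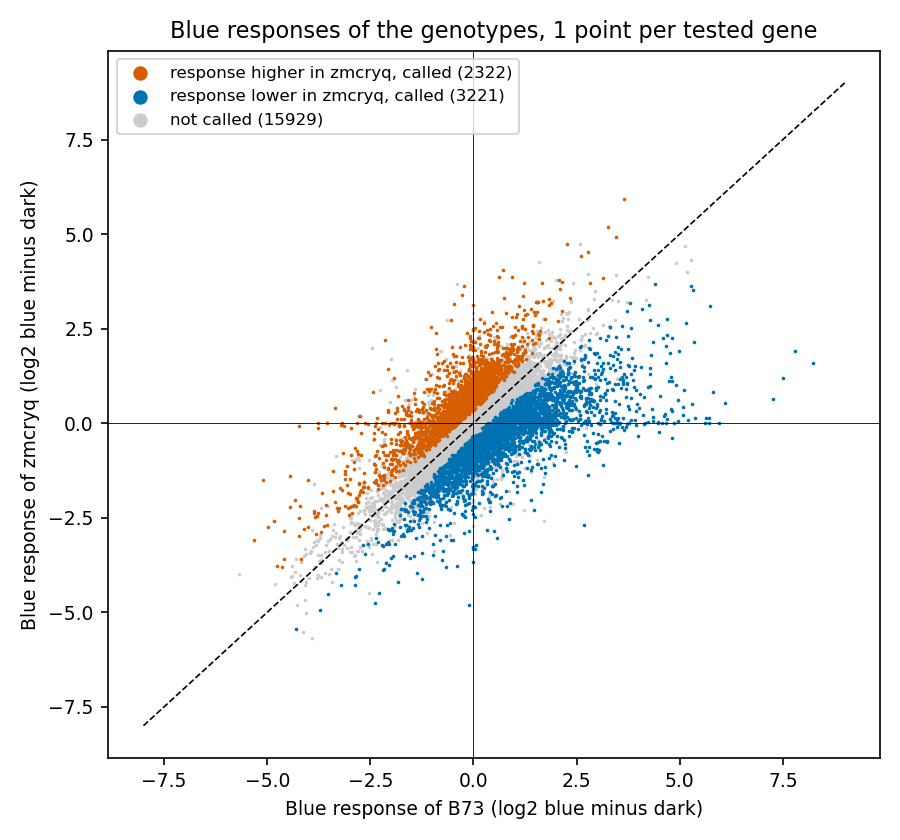
Blue response of each tested gene in zmcryq (vertical axis, log2 blue minus dark) against that in B73 (horizontal axis, same unit), with the dashed line marking equal responses. The 2322 genes called higher in zmcryq lie above the line and the 3221 called lower lie below it, where a tail of genes with a large rise in B73 runs to the right along a zmcryq response near 0.

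Weaker and stronger responses in zmcryq were about equally frequent. By each genotype's own response, 2459 (44.4%) had a response in B73 that was weaker or not called in zmcryq, and 2520 (45.5%) had a response in zmcryq that was weaker or not called in B73. A further 507 were called in both genotypes in opposite directions, and 57 in neither. Of all tested genes, 56.2% were called for the blue response of zmcryq, 28.3% as a rise and 27.8% as a fall. For that of B73 the share was 52.1%, with 26.9% as a rise and 25.2% as a fall. Among differences of 2-fold or more the weaker responses prevailed, with 1163 genes (49.4%) against 808 stronger in zmcryq (34.4%). With quantile normalization these were 1150 and 860, and with no scaling 546 and 422.

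Induction called in B73 alone formed the most frequent class after median-ratio scaling, with 990 genes, a ranking not computed under other scalings. Their median blue response was 0 in zmcryq, in part by the choice of the class, and 1.11 in B73. The median zmcryq minus B73 difference in the dark was -0.06. This signed median does not show how close single genes were. Over all genes called lower the signed dark median was 0.09, while the median size of the dark difference was 0.5. Another 640 genes rose in both genotypes but less in zmcryq, with medians of 0.73 in zmcryq and 2.01 in B73. In blue light the median zmcryq minus B73 difference was -1.29 in the first of these classes and -1.44 in the second.

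After median-ratio scaling, B73 falls that were weaker or not called in zmcryq were fewer than such rises. For 529 genes a fall was called in B73 alone, with median responses of 0.02 in zmcryq, in part by the choice of the class, and -0.75 in B73. Another 300 fell in both but less in zmcryq, with medians of -0.79 in zmcryq and -1.75 in B73. In the 529 genes the dark level differed as well, with a median zmcryq minus B73 difference of -0.46, against 0.3 in blue light.

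Responses called in zmcryq alone made up 16.7% of the called genes as rises and 12.9% as falls. There were 924 genes that rose in zmcryq alone, with medians of 0.82 in zmcryq and 0 in B73, and 713 that fell in zmcryq alone, with medians of -0.86 in zmcryq and 0 in B73. The B73 medians of 0 follow in part from how both sets were chosen. In both sets the median zmcryq minus B73 difference changed sign with light, in part by the same choice. It was 0.56 in blue light and -0.25 in the dark for the rising genes, and -0.27 in blue light and 0.6 in the dark for the falling ones. Stronger responses in the same direction were seen for 369 genes that rose, with medians of 1.45 in zmcryq and 0.63 in B73, and 514 that fell, with medians of -1.6 in zmcryq and -0.74 in B73.

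Opposite responses were, after median-ratio scaling, more often a fall in zmcryq with a rise in B73 than the reverse. There were 340 genes of the first kind, with median responses of -0.63 in zmcryq and 0.67 in B73, and 273 of them differed by 2-fold or more. The reverse was found for 167 genes, with medians of 0.57 in zmcryq and -0.51 in B73, 97 of them at 2-fold or more.

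**Figure D2:**
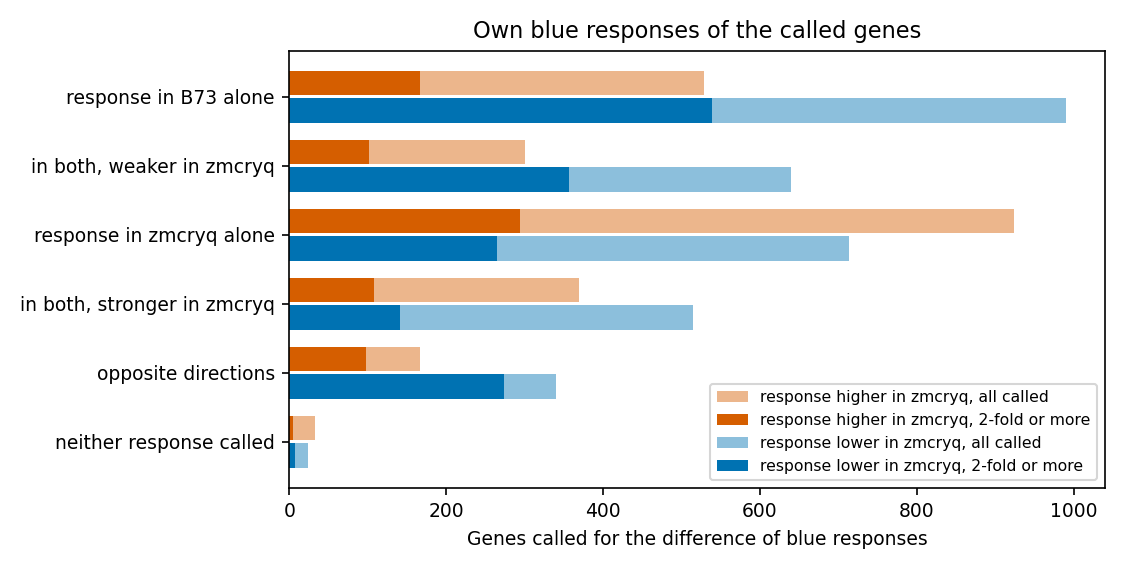
Number of called genes by each genotype's own blue response, split by the direction of the difference (orange for a response higher in zmcryq, blue for lower); full colour marks differences of 2-fold or more and pale colour all called genes. Counts are after median-ratio scaling. The longest bar is the 990 genes lower in zmcryq with a response called in B73 alone. Next are the 924 genes higher in zmcryq with one called in zmcryq alone.

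To look for a group that sets the difference, the 4 group means of a gene were compared. A group stood apart where the means of the other 3 lay within 0.5 of the size of the difference from each other. By this rule 2453 called genes had a single group apart and 3090 (55.7%) did not. Where zmcryq blue and B73 dark both lay above or both below the other groups, the limit of 0.5 always names a single group. Such crossed genes are among the 2453 even where no group is odd, as with Zm00001eb441710 and Zm00001eb369910 below, and their number was not counted. B73 in blue light stood apart for 993 genes (17.9%), zmcryq in blue light for 663 (12%), zmcryq in the dark for 490 (8.84%) and B73 in the dark for 307 (5.54%). Among differences of 2-fold or more, B73 in blue light made up 650 of 2352 (27.6%), zmcryq in blue light 317 (13.5%), zmcryq in the dark 186 and B73 in the dark 127. These shares depend on the limit: B73 blue above the other groups, the most frequent of the 8 patterns, counted 795 genes at 0.5, 319 at 0.25 and 1240 at 1, but it stayed the most frequent in all 25 settings run. For each pattern, 1 gene is given in full: that with the largest difference among genes with no group at 0 throughout and a highest group mean of 10 scaled FPKM or more, which 1255 of the 2453 met.

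**Figure D3:**
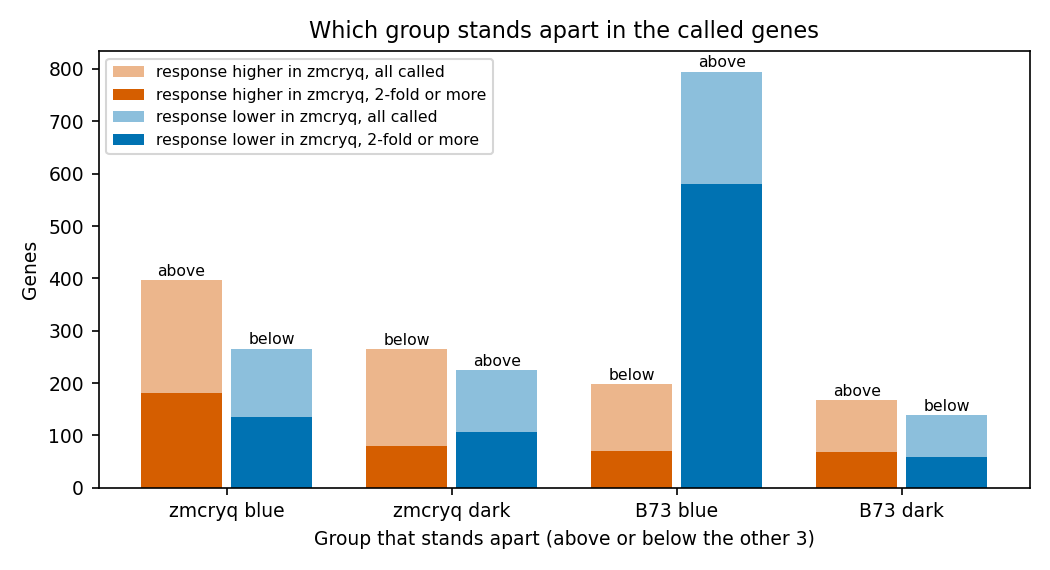
Number of called genes in which a single group stands apart, by group and by the direction of the difference of responses (orange higher and blue lower in zmcryq; full colour 2-fold or more). The word over each bar says whether the group lay above or below the other 3; the 795 genes with B73 blue above exceed each of the other 7 bars, which run from 139 to 397.

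In the 795 genes with B73 blue above the others, 580 differed by 2-fold or more. The median level was 2.8 scaled FPKM in zmcryq blue, 2.7 in zmcryq dark, 13.8 in B73 blue and 2.85 in B73 dark. All 3 B73 blue libraries took part, at median distances of 1.43, 1.49 and 1.51 from the mean of the other groups, and B73 blue replicate 2, whose scaling factor was 0.567, lay between the other replicates. In 758 of the 795 all 3 B73 blue libraries lay above all 9 others, against 15.1% of all tested genes, a share that follows in part from how the set was chosen. The medians of the zmcryq blue libraries, from -0.02 to 0.02, lay among those of the 6 dark libraries, from -0.04 to 0.05. This closeness also follows in part from the choice, which required the means of these 3 groups to lie near each other.

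Zm00001eb149430 had the largest difference of this kind within those limits. Its scaled FPKM were 4.6, 5.16 and 6.98 in zmcryq blue and 0.867, 1.48 and 1.11 in zmcryq dark. In B73 they were 3670, 3050 and 2830 in blue light and 8.98, 11.2 and 8.48 in the dark. The groups did not overlap: zmcryq in blue light reached less than the lowest B73 dark library. The response was 1.61 ± 0.16 (SE) in zmcryq (limma adjusted p 8.1e-06) and 8.24 ± 0.16 in B73 (5.6e-11), a difference of -6.63 ± 0.23 (1.1e-08, n = 3 libraries per group). In the dark the zmcryq minus B73 difference was -2.3 (limma adjusted p 5e-07).

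The opposite pattern, B73 blue below the others, held for 198 genes, 70 of them at 2-fold or more. Median levels were 10.3 scaled FPKM in zmcryq blue, 9.51 in zmcryq dark, 5.39 in B73 blue and 10.3 in B73 dark. In 177 genes the 3 B73 blue libraries lay below all others, against 11.0% of tested genes, again in part by the choice of the set. Zm00001eb163680 was listed at 8.43, 15.5 and 8.19 scaled FPKM in zmcryq blue and at 4.53, 26.8 and 11.1 in zmcryq dark. In B73 it was listed at 0, 0 and 1.64 in blue light and at 20.9, 12.1 and 22.3 in the dark. The B73 blue libraries lay below the other 9, while the dark libraries of zmcryq spread widely. Its difference of responses was 3.64 ± 0.83 (limma adjusted p 0.01), with a response of -0.13 ± 0.59 in zmcryq and -3.77 ± 0.59 in B73.

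Blue light set the mutant itself apart in 663 genes. In 397 of them zmcryq blue lay above the others, with median levels of 6.7 scaled FPKM in zmcryq blue, 2.54 in zmcryq dark, 2.45 in B73 blue and 2.77 in B73 dark. The 3 zmcryq blue libraries deviated by medians of 0.89, 0.87 and 0.89, and in 351 genes all of them lay above the other 9 libraries, against 11.3% of tested genes. In the other 266 genes zmcryq blue lay below, with median levels of 8.33, 17.4, 16.7 and 15.4 scaled FPKM in zmcryq blue, zmcryq dark, B73 blue and B73 dark. In 236 of them all 3 zmcryq blue libraries lay below the rest, against 9.53% of tested genes. The counts of 351 and 236 follow in part from the choice of the genes. The median response was 0.93 in zmcryq and -0.02 in B73 in the 397 genes, and -0.86 in zmcryq and 0.14 in B73 in the 266 genes.

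Zm00001eb368220 was listed at 16.3, 18.2 and 18.1 scaled FPKM in zmcryq blue and at 0, 0 and 2.39 in zmcryq dark. In B73 it was listed at 6.72, 8.07 and 0 in blue light and at 3.91, 1.98 and 6.89 in the dark. The zmcryq blue libraries lay above all others, and the B73 groups overlapped each other. The difference was 3.86 ± 1.15 (limma adjusted p 0.035), a call lost in 9 of 21 other settings, with adjusted p up to 0.077.

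Zm00001eb441710, taken for zmcryq blue below the others, had opposite responses in the genotypes. It stood at 0.0237, 3.34 and 1.13 scaled FPKM in zmcryq blue and at 19.4, 9.26 and 11.5 in zmcryq dark. In B73 it stood at 5.44, 38.5 and 11.2 in blue light and at 4.81, 0.707 and 0.161 in the dark. The zmcryq blue libraries overlapped the B73 dark ones, and blue and dark did not overlap within either genotype. The response was -2.7 ± 0.81 in zmcryq (limma adjusted p 0.017) and 2.69 ± 0.81 in B73 (0.018), a difference of -5.39 ± 1.14 (0.0073).

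In 490 genes zmcryq stood apart in the dark. In 265 of them zmcryq dark lay below, with median levels of 6.86 scaled FPKM in zmcryq blue, 3.2 in zmcryq dark, 6.38 in B73 blue and 6.81 in B73 dark. In 225 it lay above, with median levels of 5.86, 14.2, 6.52 and 5.63 scaled FPKM in zmcryq blue, zmcryq dark, B73 blue and B73 dark. The libraries of zmcryq dark lay beyond all others in 231 and 202 of these genes, against 12.5% and 13.7% of tested genes, in part by their choice. By the choice of these genes the genotypes lie close in blue light and apart in the dark: the median zmcryq minus B73 difference was 0.07 in blue light and -0.77 in the dark in the 265 genes, and -0.1 in blue light and 0.88 in the dark in the 225 genes.

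Zm00001eb098130 is an example with clear separation. It was listed at 0.0791, 0 and 0.0791 scaled FPKM in zmcryq blue and at 35.6, 31.4 and 20.6 in zmcryq dark. In B73 it was listed at 0.166, 1.13 and 0 in blue light and at 1.23, 0.248 and 0.111 in the dark. The zmcryq dark libraries lay far above the other 9, which were at 1.23 or below. The response was -4.81 ± 0.32 in zmcryq and -0.11 ± 0.32 in B73, a difference of -4.7 ± 0.45 (limma adjusted p 2.8e-05), and the genotypes differed by 4.34 in the dark (8.5e-07) and by -0.36 in blue light (0.36).

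Zm00001eb212980 went the other way. It was listed at 12.3, 6.79 and 10.4 scaled FPKM in zmcryq blue and at 0, 1.25 and 2.62 in zmcryq dark. In B73 it was listed at 7.53, 5.99 and 13.1 in blue light and at 9.39, 17.4 and 28.4 in the dark. The zmcryq dark libraries lay below all others, and zmcryq and B73 overlapped in blue light. The difference of responses was 3.3 ± 0.72 (limma adjusted p 0.0079), with 2.39 ± 0.51 in zmcryq (0.0026) and -0.91 ± 0.51 in B73 (0.16).

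B73 in the dark stood apart least often. It lay above the others in 168 genes, with median levels of 4.32, 3.96, 3.67 and 8.94 scaled FPKM in zmcryq blue, zmcryq dark, B73 blue and B73 dark, and below them in 139, with medians of 8.02, 9.22, 9.37 and 4.59. Its 3 libraries lay beyond the rest in 142 and 119 of these genes, against 6.61% and 5.71% of tested genes, in part by their choice.

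Zm00001eb222150 stood at 6.61, 0 and 0 scaled FPKM in zmcryq blue and at 0.197, 0.0744 and 5.79 in zmcryq dark. In B73 it stood at 0.491, 0.353 and 0.337 in blue light and at 24.8, 38.7 and 16.1 in the dark. The B73 dark libraries lay above all others, and each zmcryq group held 1 library near 6 beside others near 0. The difference was 4.15 ± 1.25 (limma adjusted p 0.036), and the call was lost in 11 of 21 other settings, with adjusted p up to 0.17.

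Zm00001eb369910, chosen for B73 dark below the others, was also highest in B73 blue and is another crossed gene. Its zmcryq blue and B73 dark means both lay below those of zmcryq dark and B73 blue. It stood at 13.1, 15.4 and 14.9 scaled FPKM in zmcryq blue and at 16.7, 18.7 and 23.3 in zmcryq dark. In B73 it stood at 108, 78.5 and 73.3 in blue light and at 2.12, 8.39 and 0 in the dark. In both light conditions zmcryq lay between the B73 groups with no overlap. The difference was -5.21 ± 0.89 (limma adjusted p 0.0023), from a response of -0.4 ± 0.63 in zmcryq (0.62) and 4.81 ± 0.63 in B73 (0.00013).

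**Figure D4:**
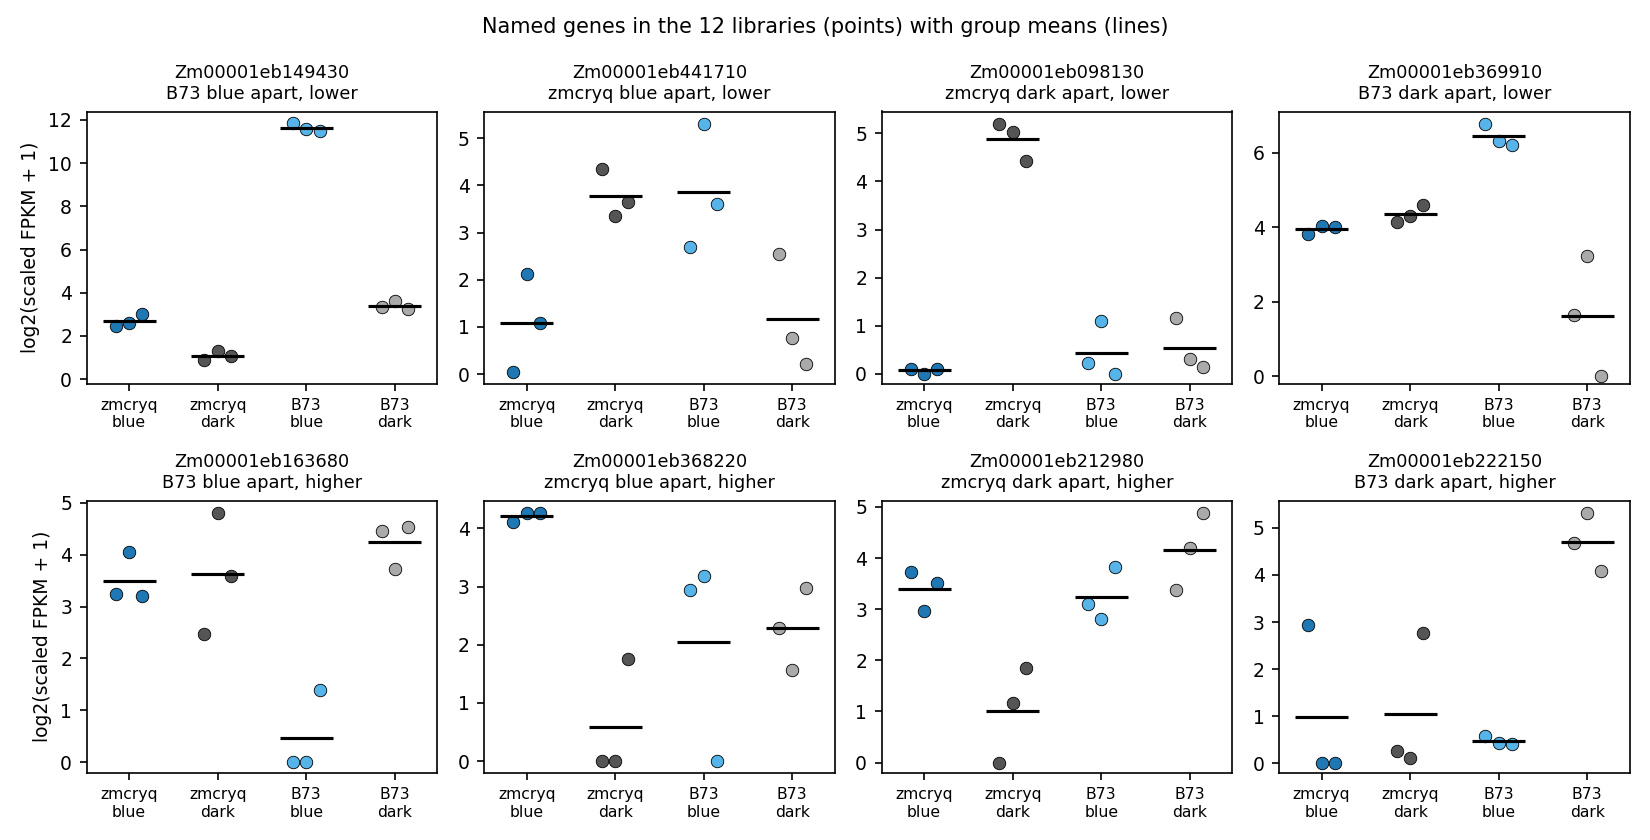
log2(scaled FPKM + 1) of the 8 named genes in every library (points; lines are group means of 3), with zmcryq blue, zmcryq dark, B73 blue and B73 dark from left to right and genes lower in zmcryq in the upper row. In Zm00001eb149430 the B73 blue libraries and in Zm00001eb098130 the zmcryq dark libraries lie far above the rest, while in Zm00001eb441710, Zm00001eb368220 and Zm00001eb222150 the libraries of a group spread over a large part of the axis.

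The remaining 3090 called genes had no single group apart. In 1559 of them (50.5%) the 2 highest means belonged to the same light condition, and in 1531 (49.5%) to the same genotype. The third pairing, zmcryq blue with B73 dark against the rest, held for 0, because the rule assigns all such genes to a single group. The median responses of the 3090 genes lay on both sides of 0. In the 1796 genes called lower they were -0.44 in zmcryq and 0.48 in B73, and in the 1294 called higher 0.57 in zmcryq and -0.22 in B73.

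The genotypes differed more in blue light than in the dark for the genes called lower. Their median zmcryq minus B73 difference was -0.89 in blue light and 0.09 in the dark, and it was the larger in size in blue light for 2234 of the 3221 (69.4%), beside 53.1% of all tested genes. For the genes called higher the median was 0.53 in blue light and -0.29 in the dark, with the larger size in blue light for 1325 of 2322 (57.1%). The shares are descriptive, since the differences in blue light and in the dark make up the difference of responses itself.

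The lead of lower over higher calls was widest among abundant genes after median-ratio scaling. The tested genes were divided into 5 equal bins by mean level. In the lowest bin, 0.206 to 1.79 scaled FPKM, 11.1% were called higher and 13.9% lower in zmcryq. In the highest bin, from 23.1 scaled FPKM upwards, 8.71% were higher and 17.3% lower. Quantile normalization gave 10.9% and 14.6% in the lowest bin but 19.6% and 10.9% in the highest, so that the direction of the imbalance among abundant genes turned with the scaling. With no scaling 5.87% were higher and 5.19% lower in the lowest bin, and 1.23% higher and 0.303% lower in the highest.

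**Figure D5:**
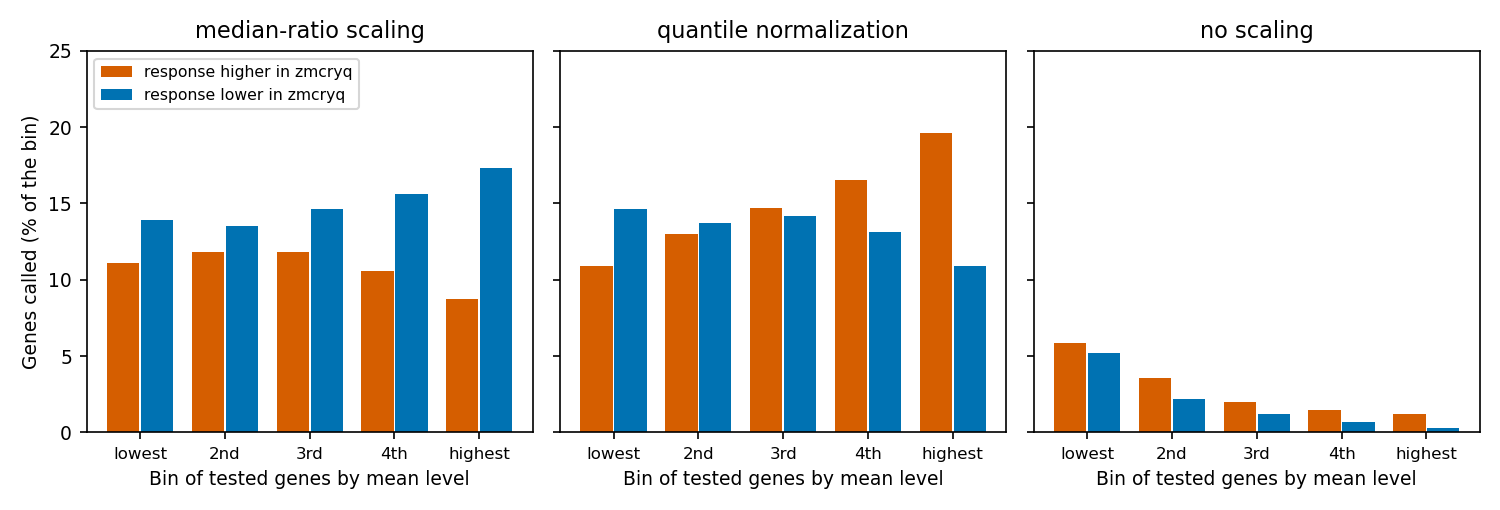
Share of genes called higher (orange) and lower (blue) in zmcryq, as a percentage of each of 5 bins of the tested genes by mean level, under 3 ways of scaling. In the most abundant bin the lower calls lead after median-ratio scaling (17.3%) and the higher calls after quantile normalization (19.6%).

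A difference of log2 responses compares ratios, and genes that start at different levels can differ in ratio without differing in the amount gained. In scaled FPKM without a log, 124 of the 5543 called genes had a difference of the opposite sign, and none of the 8 named genes did. In 247 called genes a whole group was listed at 0 in its 3 libraries, so the size of their differences depends on the pseudocount.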

How the data were processed

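The authors deposited 1 table with a value per gene for each of the 12 libraries, which were read as FPKM, and their 4 group means, which were left aside. The deposited FPKM values were made by the authors with tools that the submitters' processing notes list, without role or order, as Trimmomatic 0.36, HISAT2 2.2.1.0, Cufflinks, TopHat, Bowtie2 and DESeq 1.18.0. The file headers state no unit. No source used here gives the genome build, annotation or strand setting, so copies of a gene or overlapping genes may share fragments.

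Genes reaching 1 FPKM in 3 libraries or more were kept. Each library was divided by its median ratio to the genes' geometric means, taken over 19555 kept genes above 0 in every library. One mean per group was fitted to log2(value + 1) with limma 3.58.1 in R 4.3.3 (trended, robust moderation, 2-sided, Benjamini-Hochberg over 21472 genes, threshold 0.05). The fit was also run on simulated data, with an outcome not given here. The simulated noise was drawn separately for each gene and library, so it cannot test deviations that the genes of a library share. Named genes were, per group standing apart and direction, the gene with the largest difference among called genes with a highest group mean of 10 or more and no group at 0 throughout. Lists, members and alternatives were chosen with earlier results of these data known. Lists of gene names and cell type markers were not analysed here, for want of names. Alternatives changed scaling, pseudocount, filter, moderation, weights, the replicate block and the libraries used.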

Additional observations from a re-analysis of the deposited data

Results flagged for a closer look

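Every result here was picked out because the genotypes' blue responses differed by the test of the difference itself. In 2322 genes zmcryq had the higher response and in 3221 the lower, with 771 and 1581 of them 2-fold or more apart. Of the named genes, Zm00001eb149430 differed by -6.63, Zm00001eb441710 by -5.39, Zm00001eb369910 by -5.21 and Zm00001eb098130 by -4.7 on the log2 scale, zmcryq minus B73. Zm00001eb222150 differed by 4.15, Zm00001eb368220 by 3.86, Zm00001eb163680 by 3.64 and Zm00001eb212980 by 3.3. Over 21 other settings the limma adjusted p of Zm00001eb149430 stayed between 7.2e-17 and 0.00032 and that of Zm00001eb098130 between 3.6e-16 and 0.002. It reached 0.031 for Zm00001eb163680, 0.027 for Zm00001eb441710, 0.043 for Zm00001eb212980 and 0.025 for Zm00001eb369910, still called in each. Zm00001eb368220 ranged from 4.6e-07 to 0.077 and Zm00001eb222150 from 0.0099 to 0.17. The values of 7.2e-17, 3.6e-16 and 4.6e-07 came from the run with no scaling. There the moderation took the spread of the typical gene from all genes, not from its own libraries. In the other settings the limma adjusted p of Zm00001eb368220 went no lower than 0.013.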

How the results depend on the processing

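With no scaling the counts were 605 higher and 412 lower, all of them at 2-fold or more, with 546 weaker and 422 stronger in zmcryq, against 2322, 3221, 2459 and 2520. The median residual SD was then 0.494 against 0.18, and the moderation took the spread of the typical gene from all genes. Array weights gave 4144 higher, 4779 lower, 3741 weaker and 4133 stronger. Requiring 1 FPKM in all 12 libraries tested fewer genes and gave 2067 lower, 398 and 877 at 2-fold or more, 1508 weaker and 1654 stronger. A pseudocount of 5 gave 307 higher and 872 lower at 2-fold or more. Without the libraries of lowest factor, B73 blue replicate 2 and zmcryq dark replicate 1, 1412 were higher and 1616 stronger. Leaving out single libraries gave 1635 to 3229 higher and 2600 to 4079 lower, 692 to 901 and 1418 to 1703 at 2-fold or more, 1967 to 3122 weaker and 1762 to 3396 stronger. Where no construction is named, the cause was not tested. The replicate block gave 2186 higher and 3134 lower and ended the calls of Zm00001eb368220 and Zm00001eb222150. What a replicate number stands for is not stated. Same-numbered libraries of different groups had residual correlations from -0.3 to 0.32, and other-numbered ones from -0.37 to 0.29. Of 12 libraries, 5 correlated best with their own number. These values cannot decide whether numbers pair the libraries. The 10 counts by group standing apart moved by over 1.5 times in 10 cases with no scaling and with either other limit, 7 with array weights, 5 with the stricter filter, 4 without the libraries of lowest factor, and 1 each with quantile normalization and without B73 dark replicate 3 or zmcryq blue replicate 1. No named gene turned direction in any setting that tested it. Requiring 1 FPKM in all 12 libraries left every named gene out, because each fell below 1 FPKM in some library. Fragment counts are not in the values, so what depth limits is unknown.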
